A study of Mus musculus with 9 samples.

Results

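The 8 genes described here take part in steroid hormone signaling: Fkbp4 and Fkbp5, 2 co-chaperones of steroid receptors, Hsd11b1, an enzyme that regenerates active glucocorticoid, the p160 coactivators Ncoa1, Ncoa2 and Ncoa3, the corepressor Ncor1, and Zbtb16, a transcription factor induced by glucocorticoids and progestins. They were chosen by name from 21853 protein-coding genes, with earlier results of these data known. Each was read over its gene body plus 25 kb on either side, a stretch called its window. A peak was assigned to a promoter when it overlapped 1 kb on either side of the start of a protein-coding transcript of that gene, and otherwise to the gene body or the flanks. The windows held 1197 of the 848801 peaks in 8 deposited peak lists.

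Steroid receptors are held in a hormone-binding state by the chaperone HSP90 and its co-chaperones, bind DNA at paired hexamers once occupied by hormone, and recruit coactivators that acetylate histones or corepressors that bring in histone deacetylases. Glucocorticoid, progesterone and androgen receptors recognize the same palindromic element, and the estrogen receptor recognizes another. Acetylation of lysine 27 of histone H3 (H3K27ac) marks active promoters and active enhancers, whereas monomethylation of lysine 4 (H3K4me1) marks enhancers and the flanks of active promoters. In the oviduct, estrogen and progesterone govern muscle contraction and embryo transport in early pregnancy.

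The lists came from primary oviductal muscle cells of WT (wild-type) mice aged 8-12 weeks on D2 of pregnancy. H3K27ac and H3K4me1 were each assayed in 3 replicates by ChIC-seq, in which an antibody carries MNase fused to protein A to its target and the chromatin cut there is sequenced, and 3 IgG libraries served as controls. The cells had been freed from oviduct by enzymes, passed through a filter and kept in culture for some hours, first in charcoal-stripped serum, which is depleted of steroids, and then in whole serum. No group was treated with a hormone, no group lacked a gene, and the number of animals per replicate was not given in the labels, so that p-values measure only the spread between these lists.

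Of 11 smooth muscle markers, 7 had a promoter peak in all 6 replicate lists, against 24.3% of all protein-coding genes, among them Acta2, Des and Cald1, but Myh11, a defining marker of mature smooth muscle, had one in 0 of 3 H3K27ac lists and in 1 of 3 H3K4me1 lists. Of 7 stromal markers, 6 had one in all 6 lists. The median window coverage of the stromal markers was 32.9% for H3K27ac and 29.1% for H3K4me1, compared with 10.8% and 7.63% for smooth muscle, and with 4.20% and 7.38% for epithelial, 5.24% and 5.03% for endothelial and 2.12% and 2.29% for blood markers. Of 7 epithelial, 4 endothelial and 5 blood markers 0 had promoter peaks in all 6 lists, although 1 epithelial marker had them in all 3 H3K4me1 lists and 1 blood marker in all 3 H3K27ac lists. What part other cell types had in the values below was not tested. The replicate lists were called from 40551842 to 78891920 fragments against 3110985 to 3713369 IgG fragments. At the 8 genes, the median fold enrichment over background was 1.50 to 1.68 by replicate list, compared with 1.43 to 1.62 over all peaks, and 15.1% to 31.1% of the peaks of a list reached a −log10 p-value of 1.3, compared with 11.1% to 19.0% over all peaks. The control was IgG 1 for H3K27ac 1, IgG 2 for H3K27ac 2 and for H3K4me1 1 and 2, and IgG 3 for replicate 3 of both marks.

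Fkbp5 and Zbtb16, which are known to respond to glucocorticoids, each contained a hormone receptor palindrome in an intronic stretch that carried both marks in all 6 replicate lists. The palindrome was searched as GNACANNNTGTNC, which reads the same on both strands. In Fkbp5 it lay at chr17:28420322-28420334 in intron 5 of Fkbp5-201, in a stretch of 2141 bp. In Zbtb16 it lay at chr9:48737602-48737614 in intron 3, in a stretch of 2912 bp. Both sequences are shown on the forward strand of GRCm38 with 60 bases on either side, the palindrome in capitals, because they were the only matches at the 8 genes that peaks of all 6 lists covered.
Fkbp5 chr17:28420262-28420394: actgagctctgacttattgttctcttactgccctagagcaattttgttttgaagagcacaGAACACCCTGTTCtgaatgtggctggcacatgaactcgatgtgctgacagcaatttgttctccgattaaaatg
Zbtb16 chr9:48737542-48737674: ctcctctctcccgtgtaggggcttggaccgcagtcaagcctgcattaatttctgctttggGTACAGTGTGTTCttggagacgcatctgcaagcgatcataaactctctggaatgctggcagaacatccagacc

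At Fkbp5 the peaks over this palindrome had fold enrichments of 1.98, 2.201 and 1.86 in H3K27ac replicates 1, 2 and 3 and of 2.08, 2.23 and 1.88 in H3K4me1 replicates 1, 2 and 3. At Zbtb16 they had 1.99, 1.94 and 1.85 for H3K27ac and 2.00, 1.94 and 1.93 for H3K4me1. These values ranked at the 86.6th to 99.6th percentile of the peaks of their lists. Both palindromes stayed within stretches carrying both marks when peaks were limited to those at a −log10 p of 1.3 or more, which left 6 of the 50 stretches at the 8 genes.

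The window of Fkbp5 was rich in the palindrome, with 14 matches or 8.31 per 100 kb, against a median of 1.63 per 100 kb over all gene windows, which placed it at the 99.7th percentile. Zbtb16 had 7 matches, Ncoa2 had 6, Ncoa3 had 5, Ncoa1 had 3, and Hsd11b1 and Ncor1 had 1 each. Fkbp4 had 0 in its window of 58.9 kb. Of the 37 matches, 10 lay where at least 2 of 3 H3K4me1 lists had a peak and 4 where at least 2 of 3 H3K27ac lists did. One of the 4 lay 197 bp downstream of the 5′ start of Ncoa1, inside the peaks of all 3 H3K27ac lists and of no H3K4me1 list.

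Genome-wide, 44933 matches were found, of which 3.43% lay in H3K27ac peaks of at least 2 lists, 5.93% in H3K4me1 peaks of at least 2 lists and 1.76% in distal stretches with both. A match inside such a stretch occurred in the windows of 695 protein-coding genes, or 3.18%, and of 311 of the 3174 genes with a body of at least 80 kb, or 9.80%. Of 1877 such stretches that were 2000 to 3000 bp long, 6.39% held one. The Fkbp5 match was also complete over 15 bases (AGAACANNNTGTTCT, which contains the shorter pattern and was searched after the match had been seen). Of 639 such sequences in the genome, 19 lay in distal stretches with both marks. The estrogen receptor palindrome GGTCANNNTGACC occurred 1 time at the 8 genes, in the Zbtb16 window, outside the peaks of any 2 lists of a mark. These matches are descriptions of sequence. No binding of a receptor was measured.

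The genes fell into those where H3K27ac covered more of the window and those where H3K4me1 did. Every H3K27ac list covered more of the window than every H3K4me1 list at 2 members, Fkbp4 and Ncor1, against 17.2% of all protein-coding genes. Every H3K4me1 list covered more than every H3K27ac list at 5 members, Fkbp5, Ncoa1, Ncoa2, Ncoa3 and Zbtb16, against 12.0% of all genes. At Hsd11b1 the lists of the marks overlapped, although H3K4me1 was above among lists called against the same IgG library, a comparison with no test. Gene length moved with this count. Of the 8 members, 6 had a body of at least 80 kb, and of the 3174 genes of that length 33.9% had H3K4me1 above H3K27ac in every list and 4.91% the reverse, compared with 5 and 1 of the 6 members. When coverage was divided by the share of the genome that each list covered, 4 members (the 3 Ncoa genes and Zbtb16) had H3K4me1 above in every list. Ncor1 alone had H3K27ac above. The share of all genes is not given for this setting, so these counts show only which members kept their direction.

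In the exact permutation test, two-sided over all 20 ways to divide the 6 lists, p was 0.1 for the 7 members without overlap, which is the smallest p this design allows, and 0.2 for Hsd11b1. The Benjamini-Hochberg adjusted values over all 21853 genes were 0.342 and 0.504. No gene could pass 0.05, and 0 genes did.

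**Figure D1:**
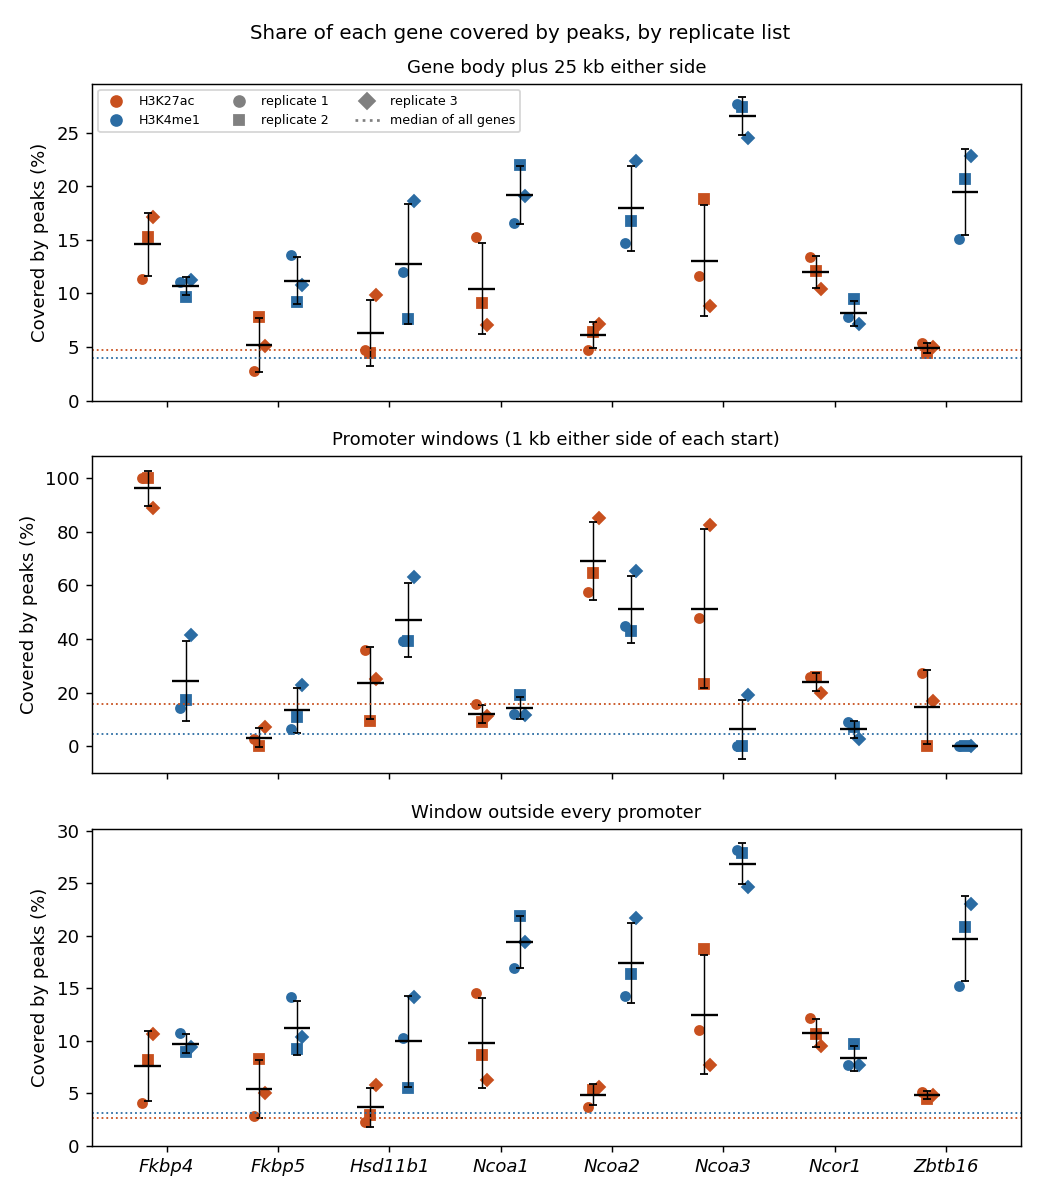
Percent of bases covered by peaks at each of the 8 genes, in the whole window (top), the promoter windows (middle) and the window outside every promoter (bottom). Each point is 1 replicate list, orange for H3K27ac and blue for H3K4me1, with the mean as a bar and ± 1 SD (n = 3), and dotted lines give the median of all protein-coding genes. In the top panel the orange points of Fkbp4 and Ncor1 lie above their blue points, and those of Fkbp5, the 3 Ncoa genes and Zbtb16 lie below.

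**Figure D2:**
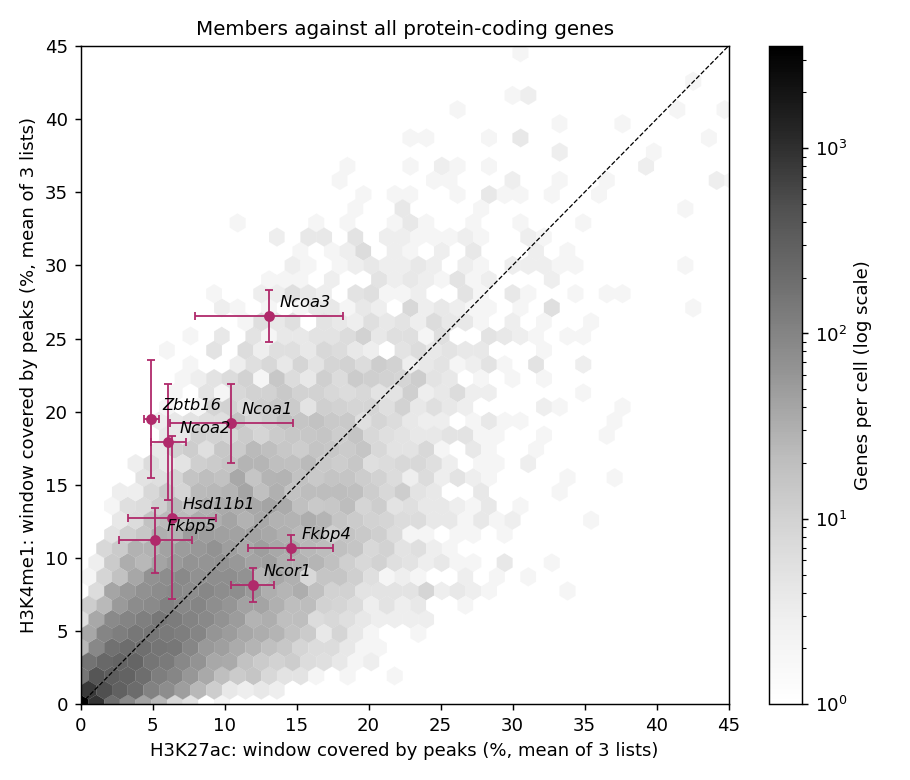
Mean percent of the window covered by H3K27ac peaks (x axis) and by H3K4me1 peaks (y axis), over 3 lists each, for all protein-coding genes (grey cells, darker for more genes on a log scale) and for the 8 genes (points with ± 1 SD, n = 3). The dashed line marks equal coverage, and 76 genes with more than 45% on either axis lie outside the plot. Fkbp4 and Ncor1 lie below the line and the other 6 genes above it.

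Fkbp4 encodes FKBP52, a co-chaperone that promotes the activity of progesterone and glucocorticoid receptors. It is the shortest member, with a body of 8.94 kb at chr6:128429735-128438677 on the minus strand. H3K27ac covered 11.4%, 15.3% and 17.1% of its window and H3K4me1 11.1%, 9.70% and 11.3%. The H3K27ac values were all higher, although the lowest exceeded the highest H3K4me1 value by little, and both means lay above the medians of all genes, which were 4.71% for H3K27ac and 3.97% for H3K4me1.

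H3K27ac covered 100%, 100% and 88.7% of the promoter windows of Fkbp4 (mean 96.2% ± 6.51, SD, n = 3, the 95.6th percentile of all genes), and H3K4me1 covered 14.3%, 17.4% and 41.4%. All 3 annotated starts lay inside an H3K27ac peak in all 3 lists and inside an H3K4me1 peak in none of them. In the pooled lists H3K4me1 covered 67.8% of these windows and the start of Fkbp4-204. Outside promoters the marks overlapped, at 4.03%, 8.11% and 10.6% for H3K27ac and 10.7%, 8.95% and 9.41% for H3K4me1. A single distal stretch of 2386 bp carried both marks in all 6 lists, at chr6:128420770-128423155. It lay 16.7 kb from the start of Fkbp4, beyond its 3′ end and within the neighboring gene Itfg2, and its target was not measured. Of the 24 flanking peaks over all 8 lists, 9 lay at the promoter of another gene.

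Fkbp5 encodes FKBP51, a co-chaperone that lowers hormone binding by glucocorticoid and progesterone receptors and is itself induced by glucocorticoids through intronic elements. Its body spans chr17:28399094-28517527 on the minus strand. H3K27ac covered 2.76%, 7.78% and 5.06% of the window and H3K4me1 13.6%, 9.21% and 10.8%. The H3K4me1 values were all higher, with a mean of 11.2% ± 2.23 against 5.20% ± 2.51, a ratio of 2.15.

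Its promoters differed from that of Fkbp4. At the start of Fkbp5-201, H3K27ac covered 10.3%, 0% and 0% of the promoter window and H3K4me1 0% in all 3 lists. At the start farthest 5′, shared by Fkbp5-202 and Fkbp5-206, H3K27ac covered 0%, 0% and 28.6% and H3K4me1 25.2%, 0% and 77.2%. These values spread too widely among replicates to separate the marks. In the pooled lists, H3K27ac covered 25.6% and H3K4me1 95.4% of the window of the start farthest 5′. Over all starts of Fkbp5 in the replicate lists, H3K27ac covered 3.22% ± 3.60 and H3K4me1 13.3% ± 8.41 (exact permutation p = 0.2). Fkbp5 carried 6 distal stretches with both marks, 5 of them in the gene body, and the stretch with the palindrome was the longest. There were 3, 3 and 4 without H3K27ac replicates 1, 2 and 3. A stretch of 552 bp, 47.6 kb from the 5′ start, was the other with peaks in all 6 lists.

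The promoter sequence upstream of Fkbp5-201 held 23 CpG dinucleotides in 250 bases, against a median of 8 over 21848 genes, and is printed because it was CpG-rich and had no H3K4me1 in any replicate list and H3K27ac in 1. The pooled H3K27ac list covered the start of Fkbp5-201 and 24.5% of its promoter window. The sequence is shown on the minus strand, CpG in capitals.
Fkbp5-201 chr17:28486150-28486399: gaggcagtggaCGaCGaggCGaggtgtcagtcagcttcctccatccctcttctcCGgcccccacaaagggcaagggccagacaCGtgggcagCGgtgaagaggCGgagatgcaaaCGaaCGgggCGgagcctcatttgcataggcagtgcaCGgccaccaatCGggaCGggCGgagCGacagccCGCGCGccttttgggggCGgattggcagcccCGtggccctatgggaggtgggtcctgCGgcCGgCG

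**Figure D3:**
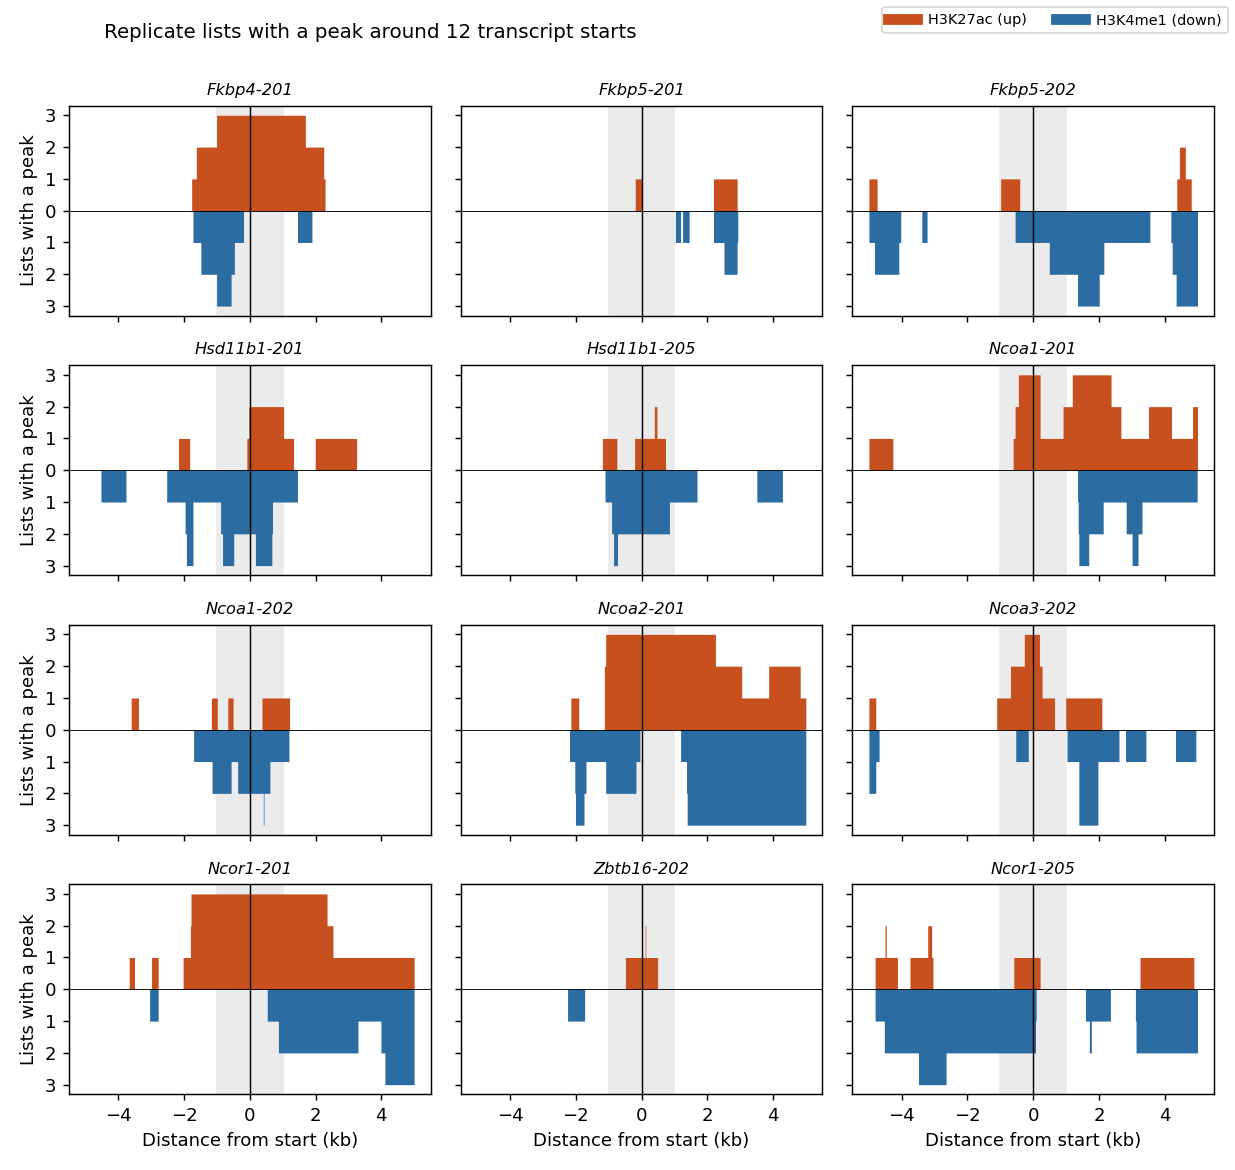
Number of replicate lists with a peak (y axis, 0 to 3) by distance from 12 transcript starts (x axis, kb, 5′ to the left), with H3K27ac upwards in orange and H3K4me1 downwards in blue, and the promoter window shaded. H3K27ac peaks of all 3 lists span the starts of Fkbp4-201, Ncoa1-201, Ncoa2-201, Ncoa3-202 and Ncor1-201, and the starts of Hsd11b1-201, Hsd11b1-205 and Ncoa1-202 lie in H3K4me1 peaks of 2 lists.

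Hsd11b1 encodes 11β-hydroxysteroid dehydrogenase type 1, which converts inert 11-keto glucocorticoids to active ones. It lies at chr1:193221634-193264075 on the minus strand, inside the gene Lamb3, which runs on the other strand, so that a peak in its body is also a peak in Lamb3. H3K27ac covered 4.68%, 4.45% and 9.88% of the window and H3K4me1 12.0%, 7.58% and 18.6%. Replicate 3 was the highest for both marks, and both of these lists were called against IgG replicate 3. Of the 15427 bases with a peak in any H3K27ac list, 0 had one in all 3, whereas for H3K4me1 this held for 3991 of 23006 bases.

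H3K4me1 covered the promoter windows of Hsd11b1 more than H3K27ac did in every list, at 39.2%, 39.1% and 62.9% against 36.0%, 9.42% and 24.9%. This direction was rare. It was seen at 1.71% of all genes, while the reverse, H3K27ac above H3K4me1 in every list, was seen at 26.2% of all genes and at 3 members, Fkbp4, Ncoa3 and Ncor1. The exact permutation p was 0.1, and 0.358 after adjustment over all genes. At the start of Hsd11b1-201, H3K4me1 covered 84.3%, 44.7% and 92.0% of the promoter window and H3K27ac 51.3%, 0% and 54.0%. At the start farthest 5′, Hsd11b1-205, H3K4me1 covered 9.35%, 85.5% and 100% and H3K27ac 0%, 33.7% and 29.1%, so that replicates disagreed on the extent of both marks. With a promoter window of 250 bp, or with the start farthest 5′ alone, no member had H3K4me1 above H3K27ac in every list.

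The 250 bases upstream of Hsd11b1-201 held 0 CpG dinucleotides, although all 3 H3K4me1 lists had a peak in its promoter window. They are printed in contrast to the CpG-rich promoters, on the minus strand.
Hsd11b1-201 chr1:193242630-193242879: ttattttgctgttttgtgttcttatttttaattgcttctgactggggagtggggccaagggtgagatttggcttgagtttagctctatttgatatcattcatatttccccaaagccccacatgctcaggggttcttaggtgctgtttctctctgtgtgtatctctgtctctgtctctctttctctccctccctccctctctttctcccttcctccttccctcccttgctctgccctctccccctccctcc

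Ncoa1, Ncoa2 and Ncoa3 encode the p160 coactivators SRC-1, SRC-2 and SRC-3, which bind the ligand-binding domain of receptors and recruit histone acetyltransferases. H3K4me1 covered more of each window than H3K27ac in every list. For Ncoa1, H3K27ac covered 15.2%, 9.10% and 7.02% and H3K4me1 16.6%, 22.0% and 19.1%. For Ncoa2, H3K27ac covered 4.74%, 6.44% and 7.103% and H3K4me1 14.7%, 16.7% and 22.4%. For Ncoa3, H3K27ac covered 11.6%, 18.8% and 8.82% and H3K4me1 27.7%, 27.4% and 24.5%. The lowest H3K4me1 value of Ncoa1 exceeded its highest H3K27ac value, that of H3K27ac replicate 1, by little. With only peaks at a −log10 p of 1.3 or more, the lists of the marks overlapped at Ncoa1 and Ncoa2, where H3K27ac minus H3K4me1 was −2.05 percentage points (exact permutation p = 0.4) and −0.61 (p = 0.6). The mean H3K4me1 coverage of Ncoa3, 26.5% ± 1.77, ranked at the 97.2nd percentile of all genes.

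All 3 coactivator genes had H3K27ac over their 5′ starts in every list. At Ncoa1-201 it covered 81.0%, 38.1% and 38.1% of the promoter window, at Ncoa2-201 100% in all 3 lists, and at Ncoa3-202 48.0%, 23.3% and 82.5%. H3K4me1 was absent from the Ncoa1-201 window in all 3 lists, covered 25.6%, 42.0% and 21.7% of that of Ncoa2-201 without reaching the start, and covered 0%, 0% and 19.0% of that of Ncoa3-202. Internal starts varied. At Ncoa1-202, 123 kb downstream, H3K4me1 covered 51.3%, 80.2% and 39.7% and H3K27ac 0.500%, 8.25% and 31.8%, and the start itself lay in an H3K27ac peak in 0 lists. At Ncoa2-208, 74.4 kb downstream, an H3K4me1 peak covered the start in all 3 lists and an H3K27ac peak in 1. In contrast, at Ncoa1-208, 60.4 kb downstream, H3K27ac covered 29.1%, 4.95% and 9.75% and H3K4me1 0% in all 3 lists, and at Ncoa2-203, 1.64 kb downstream, both marks covered the start in every list. Ncoa1-205 and Ncoa1-207 had neither mark in any replicate list. Internal starts, here and at the other genes, are 5′ ends of annotated transcripts. Whether transcription begins at them was not tested, and promoter values over all starts of a gene include them.

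Over the 7 starts of Ncoa1, H3K27ac covered 12.0% ± 3.51 and H3K4me1 14.2% ± 4.20 of the promoter windows (exact permutation p = 0.5), whereas H3K27ac exceeded H3K4me1 by 52.4 percentage points at its 5′ start alone. For Ncoa2, H3K27ac exceeded H3K4me1 by 18.1 percentage points over promoter windows of 1 kb either side (exact permutation p = 0.3). The difference was −10.9 with 3 kb either side and 62.2 at a −log10 p of 1.3 or more (exact permutation p = 0.1).

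The 250 bases upstream of Ncoa1-201 held 40 CpG dinucleotides, the largest number among the starts of the 8 genes, and are printed on the minus strand as the example of a CpG-rich start with H3K27ac in all lists and no H3K4me1 in the replicate lists. The pooled H3K4me1 list covered 13.0% of the promoter window.
Ncoa1-201 chr12:4477183-4477432: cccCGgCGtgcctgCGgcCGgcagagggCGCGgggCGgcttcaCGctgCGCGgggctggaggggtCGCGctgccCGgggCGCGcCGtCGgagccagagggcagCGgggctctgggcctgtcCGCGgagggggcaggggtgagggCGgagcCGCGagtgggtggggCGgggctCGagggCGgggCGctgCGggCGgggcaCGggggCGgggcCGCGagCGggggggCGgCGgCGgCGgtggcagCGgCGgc

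Ncoa3 and Ncoa1 had the largest numbers of distal stretches with both marks among the 8 genes, but this order depended on the lists used. Such a stretch was defined as sequence covered by at least 2 of 3 lists of each mark that touched no promoter of any protein-coding gene, and 43644 were found genome-wide. All 8 members had at least 1, that of Hsd11b1 being 131 bp long, as did 49.0% of all genes and 76.7% of genes with a body of at least 80 kb. Ncoa3 had 14, or 10.7 per 100 kb (97.2nd percentile of all genes), of which 12 lay in its body, including those of 2323 bp and 2563 bp at 29.0 kb and 37.7 kb from the 5′ start. Ncoa1 had 13, or 4.65 per 100 kb (85.2nd percentile), including the longest at the 8 genes, 4005 bp at chr12:4380568-4384572. Ncoa2 had 3, or 1.05 per 100 kb, although its window was the longest and its H3K4me1 coverage was near that of Ncoa1. The median of genes with a body of at least 80 kb was 1.44 per 100 kb. Hsd11b1 and Ncoa2 had 0 without H3K27ac replicate 2 and 0 without H3K27ac replicate 3, Ncor1 had 0 without H3K27ac replicate 1, and Hsd11b1, Ncoa2 and Ncor1 had 0 when all 3 lists of each mark were required. In the pooled lists Fkbp4 had 0, because a stretch that touched a promoter was not counted. Pooled H3K27ac peaks still covered 2184 bp of its stretch of 2386 bp, and pooled H3K4me1 peaks all of it. Without H3K27ac replicate 2, Ncoa3 had 4 stretches, Ncoa1 had 7 and Zbtb16 had 8. Without H3K27ac replicates 1 and 3 in turn, Ncoa3 had 8 and 10, Ncoa1 had 7 and 7 and Zbtb16 had 6 and 4. When all 3 lists of each mark were required, Zbtb16 had 5 and Ncoa3 and Ncoa1 had 4 each, and in the pooled lists Fkbp5 had 19, Ncoa3 18, Zbtb16 12 and Ncoa1 11.

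Ncor1 encodes a corepressor that links unliganded or antagonist-bound receptors to histone deacetylase 3. Its body spans chr11:62316426-62458541 on the minus strand. H3K27ac covered 13.4%, 12.1% and 10.4% of the window and H3K4me1 7.79%, 9.45% and 7.19%. The H3K27ac values were all higher, with means of 12.0% ± 1.49 and 8.14% ± 1.17. The difference, 3.81 percentage points, was −0.07 when only peaks with a pileup of at least 5 times the genome mean were kept and −1.72 in the pooled lists, and it was 2.23 at a −log10 p of 1.3 or more. Of the bases with a peak in any H3K27ac list, 23.0% had one in at least 2 lists, compared with 31.2% genome-wide.

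The 4 starts at the 5′ end of Ncor1 lay in H3K27ac peaks in all 3 lists. H3K27ac covered 100% of the windows of Ncor1-201, Ncor1-203 and Ncor1-208 in every list and 79.6%, 91.1% and 79.1% of that of Ncor1-210, the start farthest 5′, whose window also holds the start of the divergent gene Pigl. H3K4me1 covered 0% to 24.0% of these windows and no start. At Ncor1-204, 20.03 kb downstream, H3K4me1 covered 54.7%, 56.3% and 0% and H3K27ac 0%, 40.1% and 0%. H3K4me1 was gathered near the 5′ end. Of the bases with H3K4me1 in at least 2 lists, 92.7% lay within 35 kb of the 5′ start, a stretch that makes up 31.2% of the window, compared with 44.1% of those with H3K27ac. Ncor1 had 4 distal stretches with both marks, none longer than 435 bp and none in all 6 lists. These stretches made up 822 bp, compared with 12093 bp of the window with H3K27ac in at least 2 lists, and 20.4% of those 12093 bp had H3K4me1 in at least 2 lists, promoters included.

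Zbtb16 encodes PLZF, a zinc finger transcription factor used as a readout of glucocorticoid and progestin action in stromal and muscle cells. Its body spans chr9:48654297-48836222 on the minus strand, and no other gene was annotated in its window. H3K27ac covered 5.37%, 4.40% and 4.99% of the window and H3K4me1 15.04%, 20.7% and 22.8%. The H3K4me1 values were all higher, and the ratio of the means of the replicate lists, 3.96, was the largest of the 8 genes. In the pooled lists the ratio was larger at Ncoa2, with 3.73% for H3K27ac and 26.9% for H3K4me1, against 10.8% and 40.8% at Zbtb16. In the replicate lists, H3K27ac coverage of Zbtb16 lay at the 51.1st percentile of all genes and H3K4me1 coverage at the 93.0th.

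H3K27ac covered 27.1%, 0% and 16.9% of the promoter windows and H3K4me1 0% in all 3 lists (exact permutation p = 0.4). The H3K27ac mean, 14.7%, was near the median of all genes, 15.6%. The pooled lists gave 55.8% and 0%, and at a −log10 p of 1.3 or more the difference between the marks was 0. Of the bases with H3K27ac in at least 2 lists, 1.53% lay within 35 kb of the 5′ start, a stretch that makes up 25.9% of the window, and 93.6% also had H3K4me1 in a distal stretch. All 8 stretches with both marks lay in introns, and the 4 with peaks in all 6 lists, of 362, 805, 2912 and 1755 bp, lay 124.7, 100.5, 97.9 and 90.6 kb from the 5′ start. The one of 2912 bp held the palindrome shown above.

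**Figure D4:**
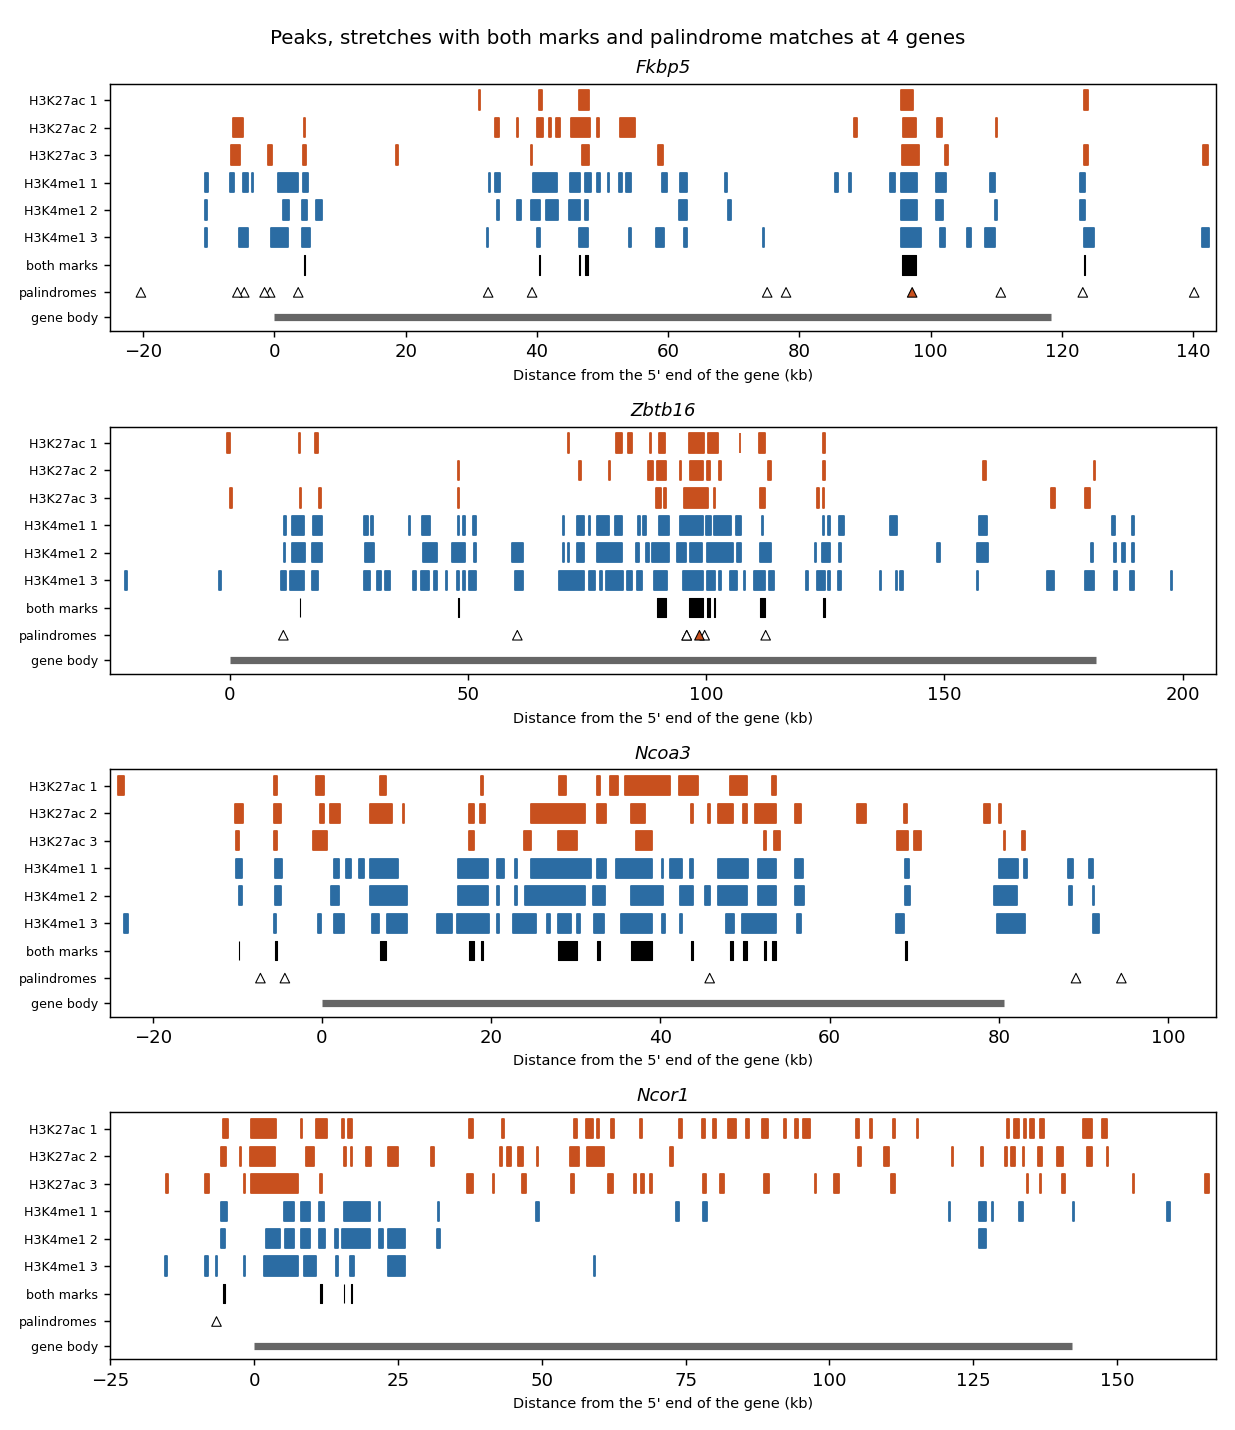
Peaks of each replicate list (orange H3K27ac, blue H3K4me1), distal stretches with both marks (black) and hormone receptor palindromes (triangles, filled when inside such a stretch) across the windows of Fkbp5, Zbtb16, Ncoa3 and Ncor1, by distance from the 5′ end of the gene (x axis, kb). The filled triangles of Fkbp5 and Zbtb16 lie 97.2 and 98.6 kb into the genes, Ncoa3 shows 14 black stretches, and the H3K4me1 peaks of Ncor1 crowd at its 5′ end.

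The 42 starts of the 8 genes were divided by CpG content. Of 17 starts with at least 10 CpG in the 250 bases upstream, 12 lay in an H3K27ac peak in all 3 lists, against 45.5% of 26151 such starts of all protein-coding genes, and 1 in an H3K4me1 peak in all 3, against 3.59%. Of 25 starts with fewer, 0 lay in an H3K27ac peak in all 3 lists, against 9.22% of 28198 such starts, and 1 in an H3K4me1 peak in all 3, against 4.59%. H3K27ac was thus more frequent at CpG-rich starts over all genes too. Several of these starts share a promoter, so they are not independent and no test was made. Internal starts were counted too, and whether transcription begins at those was not tested. The 5 CpG-rich starts outside the 12 were those of Fkbp5 and Zbtb16, with an H3K27ac peak over the start in at most 1 replicate list.

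By promoter peaks of 1 bp or more, 5 members (Fkbp4, Hsd11b1, Ncoa1, Ncoa2 and Ncor1) had peaks of all 6 lists, against 24.3% of all genes. Peaks of all 3 H3K27ac lists were found at 6 members, against 45.9% of all genes, and of all 3 H3K4me1 lists at 6, against 27.9%. No member lacked promoter peaks in all 6 lists, as 32.8% of genes did. At a −log10 p of 1.3 or more, 0 members and 3.98% of genes had promoter peaks in all 6 lists, and with the start farthest 5′ alone 2 members, Fkbp4 and Ncoa2, and 18.2% of genes did.

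Outside promoters, H3K4me1 covered more than H3K27ac in every list at 5 members, the same 5 as in the whole window, against 16.9% of all genes, and H3K27ac more than H3K4me1 at 0, against 6.75%. At a −log10 p of 1.3 or more, H3K4me1 did so at 3 members, Fkbp5, Ncoa3 and Zbtb16, against 8.92% of all genes. The difference was close at Zbtb16 and Ncoa3, and their order turned without H3K27ac replicate 2, without H3K4me1 replicate 3 and at a −log10 p of 1.3 or more. Zbtb16 had 4.82% ± 0.361 for H3K27ac and 19.7% ± 4.04 for H3K4me1, and Ncoa3 had 12.5% ± 5.67 and 26.9% ± 1.96. The exact permutation p was 0.1 for the 5, and 0.423 after adjustment over all genes.

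Together the 8 genes had 50 distal stretches with both marks, over 34363 bp, and 14 of them had peaks in all 6 lists. None overlapped an exon of its gene. Within the central 300 bases of these 50 stretches the hormone receptor palindrome was found in 0, against 0.747% of all 43644, and the AP-1 site TGANTCA in 4, or 8.00%, against 13.3%. The number of stretches was 6 at a −log10 p of 1.3 or more, 33 with at least 200 bp of both marks, 16 with all 3 lists of each mark required and 79 in the pooled lists. Leaving out 1 list, and requiring the remaining 2 of its mark, gave 24 to 49, with 29, 24 and 29 without H3K27ac replicates 1, 2 and 3.

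Genes acting with the members were counted in the same way, and the shares of all genes are those given above: 24.3% with promoter peaks in all 6 lists, 45.9% in all 3 H3K27ac lists, and 17.2% with H3K27ac and 12.0% with H3K4me1 above in every list over the window. Of 6 steroid receptors, 3 had promoter peaks in all 6 lists: Esr1, Pgr and Nr3c1, which encode the estrogen receptor α, the progesterone receptor and the glucocorticoid receptor. H3K27ac covered 26.2% ± 7.18 of the window of Esr1, 42.6% ± 2.77 of that of Pgr and 15.7% ± 0.921 of that of Nr3c1. The lowest of the 6 receptors were Esr2, at 1.74% ± 1.80, and Nr3c2, at 2.52% ± 2.04.

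All 11 chaperones and co-chaperones had promoter peaks in all 3 H3K27ac lists, as Fkbp4 did and Fkbp5 did not, and 5 of them (Hspa4, Stip1, Bag1, Ppid and Ppp5c) had peaks in all 6 lists. H3K27ac covered more of the window than H3K4me1 in every list at 4 of the 11 and less at 0. Among 10 other coactivators, 4 (Kat2b, Med1, Ncoa4 and Ncoa7) had peaks in all 6 lists. H3K4me1 was above H3K27ac in every list at 1 of the 10 and H3K27ac above at 1. Among 8 other corepressors, 5 had peaks in all 6 lists, among them Tbl1x, Tbl1xr1, Sin3a and Lcor. H3K4me1 was above H3K27ac in every list at 4 of these 8 and H3K27ac above at 2.

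Among 11 other steroid response genes, 8 (Per1, Tsc22d3, Klf9, Dusp1, Nfkbia, Errfi1, Zfp36 and Mt1) had peaks in all 6 lists, a pattern seen in neither Fkbp5 nor Zbtb16. The median H3K27ac coverage of their windows was 20.5%, compared with 5.20% for Fkbp5 and 4.92% for Zbtb16. Among 10 matched genes of steroid metabolism, 5 (Hsd11b2, H6pd, Hsd17b4, Hsd17b11 and Srd5a3) had peaks in all 6 lists and 2 (Cyp11a1 and Cyp19a1, which make pregnenolone and estrogen) had none. H6pd, which supplies NADPH to the enzyme encoded by Hsd11b1, had 17.6% ± 2.18 of its window covered by H3K27ac. Hsd11b2, which inactivates glucocorticoids, had 30.2% ± 4.79 covered by H3K27ac and 41.2% ± 8.37 by H3K4me1, both above Hsd11b1, at 6.34% ± 3.07 and 12.7% ± 5.56. These genes differ in length, and the part of length in these values was not tested.

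For each member, the gene whose window coverage was most alike was taken as the one with the smallest largest difference over the 6 lists. Fkbp4 was closest to Pif1, which differed by at most 0.810 percentage points in any list. The others were Chst12 for Fkbp5 (1.14), Vav3 for Ncoa1 (1.21), Wdr47 for Ncor1 (1.27), Arhgef12 for Ncoa3 (1.84), Colec12 for Ncoa2 (2.69), Ccbe1 for Zbtb16 (2.90) and Pef1 for Hsd11b1 (3.22), in percentage points. None of these is another member.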

How the data were processed

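Peaks from ChIC-seq for H3K4me1 and for H3K27ac were analysed, with 3 replicate lists and 1 pooled list per mark, 8 lists in all. IgG libraries entered only as controls of the calls. Per the labels, reads were handled with cutadapt, Bowtie2 and MACS2 on GRCm38.p5, and BAM names in the headers speak of unique reads without duplicates. Per the file headers, the authors called broad regions from paired ends with MACS 2.2.7.1 (p 0.05 for strong and 0.1 for weak regions), scaling the larger library to the smaller. The deposited pileup is a coverage signal at IgG depth, averaged over each region. Fold enrichment, as deposited, divides a pileup by its local background after 1 is added to both. Each region also carries a deposited p-value, written as −log10 of p. Replicate calls used 40551842 to 78891920 treatment and 3110985 to 3713369 IgG fragments, as the headers give them. Across replicate lists, the weakest region had a mean pileup worth 12.0 to 25.9 fragments. Counts per region were not given, so no count model could be fitted.

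From these files, the percent of bases covered by the union of peaks was computed for 21853 protein-coding genes of GENCODE mouse release 21 (GRCm38), in the window (body and 25 kb either side), in promoters (1 kb either side of each start of a protein-coding transcript) and in the window outside all promoters. Marks were compared with a two-sided exact permutation test of 3 against 3 lists, adjusted by Benjamini-Hochberg over all genes. Distal stretches with both marks were covered by at least 2 of 3 lists of each mark. Sequences and motif matches came from the GRCm38 genome of RefSeq. Interval and permutation code was tested on simulated data. Python 3.11.15, numpy 2.4.6, pandas 2.3.3 and matplotlib 3.10.9 were used. The 8 members and the gene lists were chosen with earlier results of these data known. Named genes were the members, the gene most alike each member, listed genes with promoter peaks in all 6 lists or in none, and genes with promoters in a member's window. Other genes named beside them (Esr2, Nr3c2 and Myh11) were chosen after their values were seen. All 6 genes of the receptor list, 11 chaperones, 10 coactivators, 8 corepressors and 11 response genes were matched in the annotation, as were 10 of 11 metabolism genes. A listed gene and a promoter sequence are not reported here.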

Additional observations from a re-analysis of the deposited data

How the results depend on the processing

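Of 396 values recomputed under alternatives, for 32 results, 352 kept their direction or, for counts, stayed within 1.5 times, although some of them changed much in size, 36 moved further or to 0 and 8 changed sign. At a −log10 p of 1.3 or more, members with H3K4me1 above H3K27ac in every list numbered 3 in the window and 3 outside promoters (5 and 5 in the comparisons above), promoters with peaks in all 6 lists 0 and distal stretches with both marks 6. With pileup of at least 5 times the genome mean, 1 member had H3K27ac above in the window, against 14.5% of all genes. At this setting the Ncor1 differences (H3K27ac minus H3K4me1, percentage points) were −0.0725 in the window and −1.65 outside promoters. In the pooled lists, 1 member had H3K27ac above in the window, the Ncor1 window difference was −1.72 and there were 79 distal stretches. Differences at other members changed in size. Pooled H3K27ac and H3K4me1 covered 10.8% and 40.8% of the Zbtb16 window, where the difference in the replicate lists was −14.6. They covered 17.5% and 16.1% of the Fkbp4 window, where that difference was 3.90. There were 16 stretches with 3 of 3 lists and 33 with at least 200 bp. In promoter windows of 250 bp, 0 members had H3K4me1 above and 2 had peaks in all 6 lists, and with 3000 bp 3 members had H3K4me1 above and the Ncoa2 difference was −10.9. The Ncoa1 promoter difference, −2.22, was 3.66 at the stricter −log10 p, 6.23 with 250 bp, 52.4 with the start farthest 5′ and −4.11 to 0.209 when 1 list was left out, with 0.209 without H3K4me1 replicate 2. With that start alone, chosen as an alternative after seeing the data, 5 members had H3K27ac above at promoters, 0 had H3K4me1 above and 2 had peaks in all 6 lists. Relative to the genome share of each list, also chosen after seeing the data, 1 member had H3K27ac above in the window. Where no share of all genes is given, here and below, the counts describe the members only. The cause of these changes was not tested.

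Without 1 list at a time, members with H3K27ac above numbered 2 to 2 in the window, 3 to 4 at promoters and 0 to 1 outside them, and members with H3K4me1 above 5 to 6, 1 to 2 and 5 to 7. Promoters with peaks in all remaining lists numbered 5 to 6 and distal stretches 24 to 49, with 29, 24 and 29 without H3K27ac replicates 1, 2 and 3. Among lists called against the same IgG library, 3 members had H3K4me1 above at promoters and 1 had H3K27ac above outside them, values with no test.

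With the replicate number as a block (exact sign flips over 3 pairs, smallest p 0.25), 2 members had H3K4me1 above at promoters and 1 had H3K27ac above outside promoters in every pair, and no other count moved by over 1.5 times. The numbers were not taken to pair the lists, because the labels do not say that they do. Correlations of the deviations of same-numbered lists were −0.0804, 0.335 and 0.494. H3K27ac replicate 2 correlated best with H3K4me1 replicate 1 (0.374), which shared its IgG library. Pairs with different IgG libraries reached at most 0.0729. These correlations therefore cannot tell pairing from a shared control. Replicates 1 of the marks used different IgG libraries, whereas replicates 2 and 3 shared theirs. Depth was not varied. The IgG libraries held 3110985 to 3713369 fragments, and peak lists without counts allow no interval for a covered percent.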
